A study of Drosophila melanogaster with 2 samples.

Results

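The antifungal peptide gene Drs (drosomycin) and 9 genes of the Toll pathway, namely spz, Tl, Myd88, tub, pll, cact, dl, Dif and Rel, were followed in sorted neural stem cell lineages of the fly larval brain, with and without brat RNAi. The 10 genes were taken by symbol from the authors' deposited table, among 14284 genes counted, and all 10 had enough counts to be measured. The 9 pathway genes belong to known steps of the pathway, whereas Drs was selected on its measured ratio between the libraries, which was very low, so that ratio is given as a description only. The study compared 1 brat RNAi library with 1 control library of type II neuroblasts and their progeny, sorted by a membrane-bound GFP (UAS-CD8::GFP) from dissected late larval brains. In the brat RNAi group, flies with UAS-dicer2, wor-Gal4, asense-Gal4 and UAS-CD8::GFP were crossed to tub-Gal80ts flies that also carried a VDRC brat RNAi line; the control cross was the same without that line. Both groups therefore share Dicer-2, the drivers, the reporter and the temperature-sensitive Gal80, and both were raised at 18 °C, moved to 29 °C and dissected 24 h later. The genes wor and asense, which lend the drivers their expression, are neuroblast genes. Type I lineages have neuroblasts that express asense, so drivers from such neuroblast genes could mark those lineages. The asense gene (ase) had 1236 counts in the brat RNAi library and 1790 in the control library. These bulk counts do not show which cells carried the transcript, and whether type I cells were in the sort was not tested. The sex and number of animals behind each library are not given in the labels used here.

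Toll signalling in Drosophila starts when the secreted ligand Spätzle, cut by a cascade of proteases, binds the receptor Toll. The adaptors MyD88 and Tube then bring in the kinase Pelle, the inhibitor Cactus is degraded, and the NF-kappaB proteins Dorsal and Dif enter the nucleus. Dorsal patterns the dorsoventral axis of the embryo, and Dif drives antifungal and antibacterial peptide genes in the fat body, with drosomycin as the classical readout. Relish, the remaining NF-kappaB protein, works mainly in the parallel Imd pathway. Drosomycin is also made without infection in some epithelia, such as salivary gland and parts of the female reproductive tract. Activation of the pathway is a matter of protein cleavage, phosphorylation and nuclear entry, which mRNA levels do not measure.

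Gene counts summed to 15236504 in the brat RNAi library and 16566265 in the control library. Counts given below are raw unless called normalised. Normalised counts are counts divided by a size factor for each library, 0.913 for brat RNAi and 1.09 for control. Ratios are the log2 of normalised counts, brat RNAi over control, with a 95% exact counting interval in parentheses. A raw count can thus be lower in the brat RNAi library where the log2 ratio is above 0. With 1 library per group there is no replicate and no test, and the intervals cover counting error only. In bulk RNA, fewer cells of a type cannot be told apart from less RNA per cell. The targeted gene brat had 6312 counts in the brat RNAi library and 12210 in the control library, a log2 ratio of -0.69 (-0.73 to -0.65), in the direction of the labels. All 10 fixed markers of type II lineages and neuroblasts were measured, with 68646 counts in all in the brat RNAi library and 63871 in the control library. The log2 ratio of these sums was 0.37 (0.35 to 0.38). A gene is called measured with at least 20 counts in both libraries together, and called at least 2-fold apart where its log2 ratio is 1 or more in size and its interval excludes 0.

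Drs (FBgn0010381), which encodes a cysteine-rich antifungal peptide, had 2 counts in the brat RNAi library and 584 in the control library. Divided by transcript length, its level was 5.66 normalised counts per kb in the brat RNAi library, with a counting interval of 0.685 to 20.4, and 1378 per kb in the control library, with an interval of 1269 to 1495. The transcript was thus abundant in the control library and near the limit of counting in the brat RNAi library. The log2 ratio was -7.93 (-10.98 to -6.07), a 244-fold lower level with a counting interval of 67.1-fold to 2016-fold. Among the 9142 measured genes, 22 had no count in the brat RNAi library, and Drs had the lowest ratio of all the others. Of measured genes, 4.48% were at least 2-fold lower and 1.15% were higher by as much in the brat RNAi library. Drs was chosen for this ratio, so nothing is read from its place against that share.

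The genes beside Drs on its chromosome did not share its ratio. In the gene order of the current annotation, the 5 measured genes on each side had log2 ratios between -0.31 and 0.58, with a median of 0.06. The nearest of them were kst, which encodes a heavy spectrin chain, at 0.51 (0.44 to 0.57) and YT521-B, an RNA-binding protein gene, at 0.03 (-0.03 to 0.09). No other gene overlaps Drs in that annotation.

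**Figure D1:**
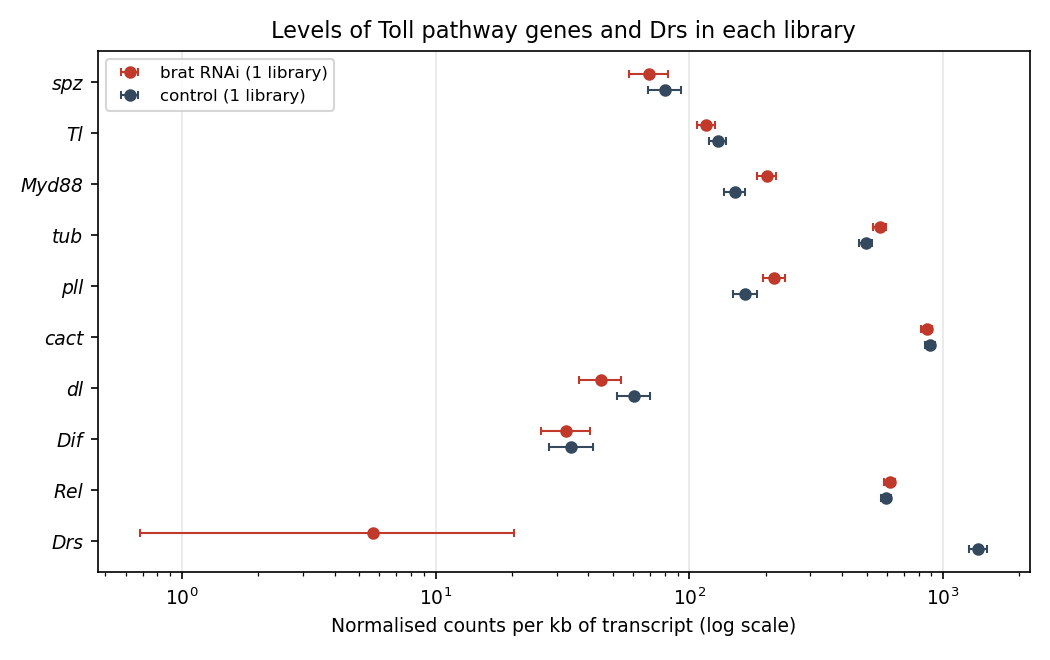
Level of each gene in normalised counts per kb of transcript on a log axis, with the brat RNAi library in red above the control library in dark blue; bars are 95% exact Poisson counting intervals of 1 library each. The pairs of points lie close together for the 9 pathway genes, while Drs stands at 5.66 per kb in the brat RNAi library and 1378 per kb in the control library.

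The ligand and the receptor were present at moderate levels and close to equal between the libraries. The gene spz (FBgn0003495), which encodes the Toll ligand Spätzle, had 127 counts in the brat RNAi library and 176 in the control library, a log2 ratio of -0.21 (-0.55 to 0.13). Tl (FBgn0262473), the receptor gene, had 546 counts in the brat RNAi library and 726 in the control library, a log2 ratio of -0.15 (-0.31 to 0.01). Both intervals included 0, but that depended on the scaling. The interval of Tl lay below 0 with TMM scaling (-0.34 to -0.01), with total-count scaling (-0.45 to -0.13) and after correction for length and level (-0.66 to -0.33). That of spz lay below 0 with total-count scaling (-0.69 to -0.01). Per kb, Tl stood at 117 in the brat RNAi library and 129 in the control library, and spz at 69.2 in the brat RNAi library and 80.0 in the control library.

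The genes of the complex under the receptor were all slightly higher in the brat RNAi library. Myd88 (FBgn0033402), whose product links Toll to the rest of the complex, had 508 counts in the brat RNAi library and 456 in the control library, a log2 ratio of 0.42 (0.23 to 0.60). The kinase gene pll (FBgn0010441) had 373 counts in the brat RNAi library and 343 in the control library, a log2 ratio of 0.38 (0.17 to 0.60). The adaptor gene tub (FBgn0003882) had 1030 counts in the brat RNAi library and 1090 in the control library, a log2 ratio of 0.18 (0.06 to 0.30). All 3 intervals lay above 0, as did those of 30.7% of all measured genes, and none of the 3 reached 2-fold. With libraries scaled by their total counts the ratio of tub was 0.04 and its interval included 0, while those of Myd88 (0.28) and pll (0.24) stayed above 0.

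The inhibitor gene and the NF-kappaB genes lay near 0, with dl the lowest. The gene cact (FBgn0000250), which encodes the inhibitor Cactus, had 1581 counts in the brat RNAi library and 1953 in the control library, a log2 ratio of -0.04 (-0.14 to 0.05). The gene dl (FBgn0260632), which encodes Dorsal, had 111 counts in the brat RNAi library and 179 in the control library. Its log2 ratio of -0.43 (-0.78 to -0.08) had an interval below 0, as had 24.3% of measured genes, and did not reach 2-fold. Dif (FBgn0011274), the immune partner of dl, had 81 counts in the brat RNAi library and 102 in the control library, a log2 ratio of -0.07 (-0.51 to 0.36). Rel (FBgn0014018) had 1796 counts in the brat RNAi library and 2082 in the control library, a log2 ratio of 0.05 (-0.04 to 0.14). The intervals of cact and Rel depended on the scaling. With total-count scaling those of cact (-0.28 to -0.09) and Rel (-0.18 to -0.0007) lay below 0. After correction for length and level that of Rel (-0.26 to -0.07) lay below 0, and that of cact included 0. The intervals of dl and Dif overlapped, so the data do not separate these ratios.

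**Figure D2:**
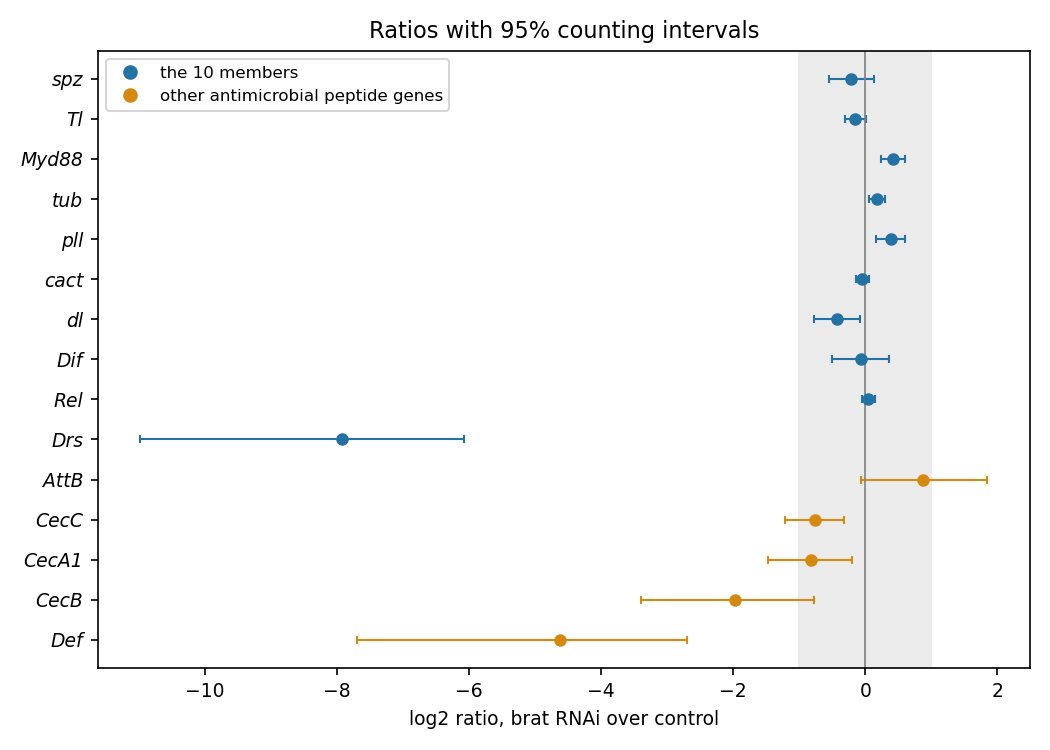
The log2 ratio (brat RNAi over control) of the 10 members (blue), in pathway order from ligand to target, and for the other measured antimicrobial peptide genes (orange); bars are 95% counting intervals and the grey band marks 2-fold. The 9 pathway genes lie inside the band, between -0.43 and 0.42, and Drs at -7.93 lies far outside it.

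As a set, the 9 pathway genes had a median log2 ratio of -0.04, beside 0.00 over all measured genes. Their range was -0.43 to 0.42, with 4 above 0 and 5 below. All 9 lay within 1.5-fold, as did 81.9% of measured genes, a share near that of genes at large. The summed normalised counts of the 9 genes were 6737 in the brat RNAi library and 6491 in the control library.

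Levels per length had the same order for the 9 pathway genes in both libraries. From high to low this order was cact, Rel, tub, pll, Myd88, Tl, spz, dl and Dif. The level of cact was 863 normalised counts per kb in the brat RNAi library and 890 in the control library, against medians over all measured genes of 239 in the brat RNAi library and 234 in the control library. Rel followed at 615 per kb in the brat RNAi library and 595 in the control library, and tub at 562 in the brat RNAi library and 496 in the control library. At the low end, dl stood at 44.8 per kb in the brat RNAi library and 60.3 in the control library, and Dif at 32.7 in the brat RNAi library and 34.3 in the control library. The counting intervals of pll and Myd88 overlapped in both libraries, those of Rel and tub and of dl and Dif in the brat RNAi library only, and those of Tl and Myd88 and of spz and dl in the control library only.

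The inhibitor transcript thus far outnumbered those of its partners. Per length, cact was 19.3-fold above dl in the brat RNAi library and 14.8-fold above it in the control library. Against Dif it was 26.4-fold higher in the brat RNAi library and 25.9-fold higher in the control library. Rel, which carries its own inhibitory ankyrin repeats, was 18.8-fold above Dif in the brat RNAi library and 17.3-fold above it in the control library. Several members overlap another gene in the current annotation. The genes pll, cact and Dif overlap TfIIA-L, fzy and CG15141 on the opposite strand, and Rel overlaps Nmdmc on its own strand. Since the strand setting of the counting is not given in the sources used here, reads from such overlaps cannot be told apart. This bears most on Dif, whose overlapping gene CG15141 had 1823 counts in the brat RNAi library and 2185 in the control library.

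Other intracellular regulators of Toll signalling were mostly slightly higher in the brat RNAi library. All 15 listed genes were matched, 14 were measured, and 0 were at least 2-fold apart. Over all measured genes 4.48% were lower and 1.15% higher, so for a list of this size the count is near those shares. The median log2 ratio of the 14 was 0.23, with 11 above 0, where 4604 of all 9142 measured genes were above 0. The most abundant was mask, a large ankyrin-repeat protein gene, with 13200 counts in the brat RNAi library and 9387 in the control library (0.75, 0.72 to 0.79). It was followed by lwr, the SUMO-conjugating enzyme gene, with 6509 counts in the brat RNAi library and 8817 in the control library (-0.18, -0.22 to -0.13). The SUMO protease gene Ulp1 had 3925 counts in the brat RNAi library and 4021 in the control library (0.23, 0.16 to 0.29). The ratio rose with transcript length over all genes, with medians of -0.24 in the shortest decile and 0.32 in the longest. After subtracting the medians of genes of similar length and level, the median of these 14 regulators was 0.04, and that of the 9 members was -0.08.

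Among the 12 genes of other Toll-family receptors and Spätzle-like ligands, 9 were measured, with a median of 0.23. Toll-9, a receptor gene, was at least 2-fold lower (-1.65, -2.98 to -0.49) on 8 counts in the brat RNAi library and 30 in the control library. It passed the minimum of counts through the control library alone. At such levels, with a mean normalised count under 100, 15.6% of measured genes were at least 2-fold lower. The most abundant receptor was Toll-7, with 2150 counts in the brat RNAi library and 1971 in the control library (0.39, 0.30 to 0.48). Tollo, known as Toll-8, had 775 counts in the brat RNAi library and 623 in the control library (0.58, 0.42 to 0.73), and 18w had 532 in the brat RNAi library and 357 in the control library (0.84, 0.64 to 1.03). Of these, Tollo and 18w are known for orienting cell rearrangements in the embryo, and Toll-7 as a receptor for neurotrophin-like ligands. Per length, Toll-7 stood above Tl, at 368 normalised counts per kb in the brat RNAi library and 281 in the control library. With the same correction their median was -0.02.

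The extracellular branch that recognises microbes and cuts Spätzle was represented at low levels. Of 23 matched genes for recognition proteins, proteases and serpins, 13 were measured and 0 were at least 2-fold apart. For a list of this size that is near the shares over all measured genes, 4.48% lower and 1.15% higher. The median of the 13 was -0.20, and 0.22 after correction for length and level, so its sign turned. The protease gene gd, which acts in the embryonic cascade, had 358 counts in the brat RNAi library and 324 in the control library (0.41, 0.18 to 0.63). The serpin gene Spn27A, an inhibitor of that cascade, had 260 counts in the brat RNAi library and 405 in the control library (-0.38, -0.61 to -0.15). GNBP1, a bacterial recognition protein gene, had 198 counts in the brat RNAi library and 278 in the control library (-0.23, -0.50 to 0.04).

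Genes of the Imd pathway, which signals through Rel, had ratios much like those of genes at large. Of 24 listed genes, 22 were measured, with a median log2 ratio of 0.02 and a range of -0.75 to 0.51. None was at least 2-fold apart, where 4.48% of all measured genes were lower and 1.15% higher, and 20 lay within 1.5-fold (90.9%, against 81.9% of all measured genes). These counts are near the shares over all genes. The most abundant were the ubiquitin-conjugating enzyme genes eff (-0.04, -0.09 to 0.01) and Uev1A (-0.06, -0.13 to 0.01), and akirin, a nuclear cofactor of Relish, at 0.03 (-0.04 to 0.10). In the brat RNAi library eff had 6040 counts, Uev1A 3348 and akirin 3072, and in the control library 7434, 4184 and 3612 in the same order of genes.

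**Figure D3:**
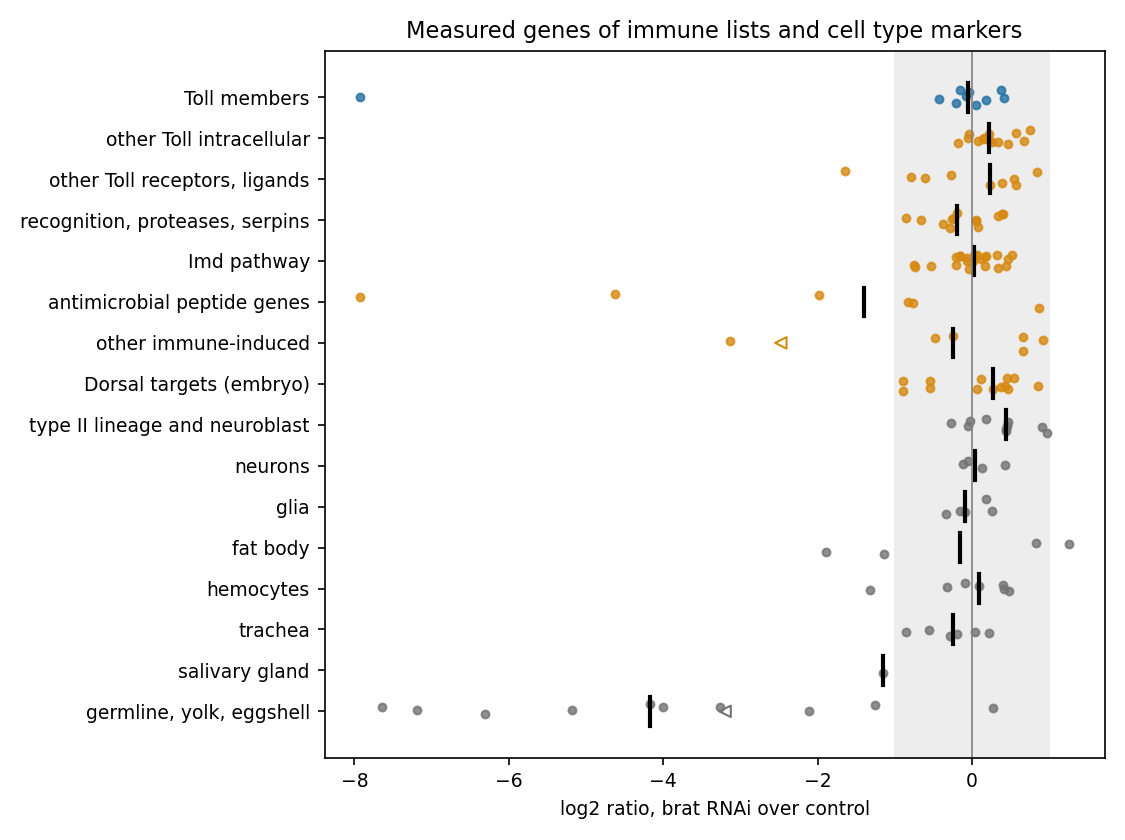
The log2 ratio (brat RNAi over control) of each measured gene of the immune lists (blue and orange) and cell type markers (grey); black lines are list medians, the grey band marks 2-fold, and open triangles stand for genes with no count in the brat RNAi library, drawn at their bound against a floor of 3 counts. The lists of signalling genes and Dorsal targets have medians between -0.20 and 0.28, while Drs and Def lie far to the left, and the female germline, yolk and eggshell markers spread from -7.64 to 0.27 around a median of -4.18.

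Most antimicrobial peptide genes were scarcely detected in either library. Of 22 such genes, 4 (Drsl1, dro3, dro4 and dro6, relatives of drosomycin) had no count in either library, and 6 were measured. Of all 14284 genes counted, 1883 had no count in either library. Drs aside, the list summed to 154 counts in the brat RNAi library and 349 in the control library, a log2 ratio of -0.92 (-1.20 to -0.64). This is the same direction as Drs and far smaller in size. Drs had more than the other 21 genes together in the control library, and 2 of the list's 156 counts in the brat RNAi library.

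Besides Drs, Def and CecB were at least 2-fold lower. Def, the gene of the insect defensin, which acts on Gram-positive bacteria, had 2 counts in the brat RNAi library and 59 in the control library (-4.62, -7.70 to -2.70). CecB, a cecropin gene, had 7 counts in the brat RNAi library and 33 in the control library (-1.98, -3.40 to -0.77). Both passed the minimum of counts through the control library alone, and both had a mean normalised count under 100. At such levels 15.6% of measured genes were at least 2-fold lower, against 4.48% of all measured genes. Among short transcripts, in the shortest decile of length, the share was 8.99%. After correction for length and level Def was at -4.12 and CecB at -1.35.

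The other measured peptide genes were closer together. CecC had 64 counts in the brat RNAi library and 130 in the control library (-0.76, -1.22 to -0.32), and CecA1 had 32 in the brat RNAi library and 68 in the control library (-0.83, -1.48 to -0.20). AttB, an attacin gene, had 26 counts in the brat RNAi library and 17 in the control library (0.87, -0.06 to 1.85). After correction for length and level CecC was at -0.33 and CecA1 at -0.32, with intervals that included 0, and AttB passed the 2-fold call on the higher side, with an interval of 0.56 to 2.47. Cecropin and attacin genes have close copies that can share reads, so their single values are uncertain.

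The rest of the list held few counts. In the brat RNAi library CecA2 had 9 counts, Dpt 5, Dro 3 and AttA 2, against 8, 4, 10 and 3 in the control library in the same order of genes. Listericin and dro5 each had 1 count in the brat RNAi library, against 3 and 2 in the control library. DptB, AttD, dro2 and Anp had 0 in the brat RNAi library, against 4, 5, 2 and 1 in the control library, and Mtk and AttC had 1 each in the brat RNAi library against 0 in the control library. Thus metchnikowin (Mtk), which like drosomycin is an antifungal peptide, was at the limit of counting in both libraries while Drs was abundant in the control library.

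Bomanins and other immune-induced genes were likewise scarce. Of 28 matched genes, 16 had no count in the brat RNAi library and 7 none in the control library, with 6 of these at 0 in both. Over all 14284 genes counted, 2768 had no count in the brat RNAi library and 2412 none in the control library, with 1883 at 0 in both. The 7 measured genes of the list had a median of -0.24, with 3 above 0 and 4 below. Of these, 2 small peptide genes were at least 2-fold lower, both of which passed the minimum of counts through the control library alone, at levels where 15.6% of measured genes were called lower. IM4 had 2 counts in the brat RNAi library and 21 in the control library (-3.13, -6.27 to -1.10). CG16712, now IM33, had 0 in the brat RNAi library and 20 in the control library, at least 5.56-fold lower against a floor of 3 counts per library. IM23, now the Bomanin gene BomBc1, had 25 counts in the brat RNAi library and 19 in the control library (0.66, -0.26 to 1.60). After correction for length and level IM23 was at 1.28 and IM4 at -2.51. The abundant genes of the list were thioester-containing proteins, which bind microbes. TepIV had 3160 counts in the brat RNAi library and 2404 in the control library (0.66, 0.58 to 0.73). TepI had 663 in the brat RNAi library and 420 in the control library (0.92, 0.74 to 1.10), and TepII had 91 in the brat RNAi library and 129 in the control library (-0.24, -0.65 to 0.16).

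Embryonic targets of Dorsal were also looked up. The list pools genes that Dorsal activates with genes it represses, such as zen and tld, so its median does not measure Dorsal activity. Of 16 listed genes 13 were measured, with a median of 0.28 and a range of -0.90 to 0.86. None was called 2-fold apart, which is near the shares over all measured genes (4.48% lower, 1.15% higher) for a list of this size. The mesoderm repressor gene sna, also a neuroblast gene, had 529 counts in the brat RNAi library and 922 in the control library (-0.54, -0.70 to -0.38). The muscle factor gene Mef2 had 476 counts in the brat RNAi library and 440 in the control library (0.37, 0.18 to 0.57), and the repressor gene brk had 445 in the brat RNAi library and 391 in the control library (0.45, 0.25 to 0.65).

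**Figure D4:**
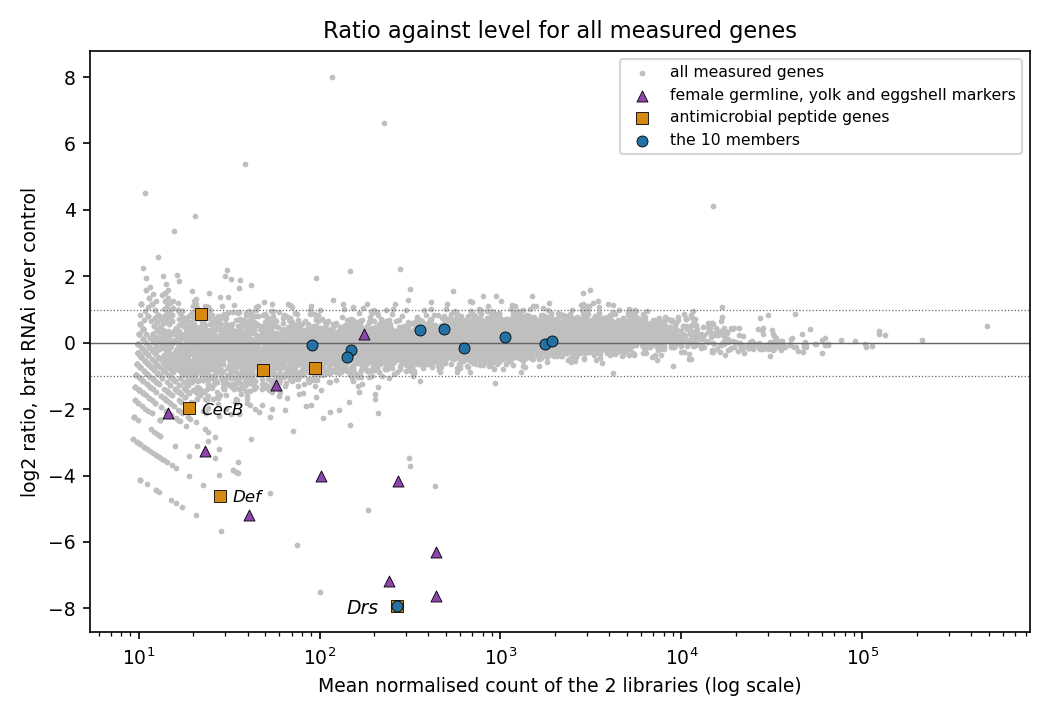
The log2 ratio (brat RNAi over control) against the mean normalised count (log axis) for measured genes with counts in both libraries, with the 10 members (blue circles), antimicrobial peptide genes (orange squares) and markers of female germline, yolk and eggshell (purple triangles) drawn over all genes; dotted lines mark 2-fold. Drs at -7.93 lies below every purple triangle; of these, dhd (-7.64) and Yp2 (-7.19) are nearest to it, and vas (0.27) lies above 0 with the 9 pathway genes around it.

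Genes with ratios closest to that of Drs are named as a description, since Drs was chosen by the same ratio. Where normalised counts averaged 100 or more and both libraries had counts, the 5 genes closest to it in log2 ratio were dhd, Cyp4p2, Yp2, Yp1 and CG18628. The gene dhd, a thioredoxin gene of the female germline, had 4 counts in the brat RNAi library and 958 in the control library (-7.64, -9.52 to -6.28). Cyp4p2, a cytochrome P450 gene, had 1 count in the brat RNAi library and 219 in the control library (-7.51, -12.82 to -5.02). The yolk protein gene Yp2 had 3 counts in the brat RNAi library and 525 in the control library (-7.19, -9.47 to -5.63). Likeness here is the difference between log2 ratios of the same pair of libraries, which was 0.29 for dhd and 2.89 for CG18628, the farthest of the 5. All 5 reached this level through the control library alone.

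Markers of other cell types were set beside Drs as whole lists. The 12 markers of female germline, yolk and eggshell, 11 of them measured, had 271 counts in all in the brat RNAi library and 3662 in the control library. The log2 ratio of these sums was -3.49 (-3.68 to -3.32). Of the measured markers 10 were at least 2-fold lower, against 4.48% of all measured genes and 15.6% of those averaging under 100. All of these but Yp3 and bam passed the minimum of counts through the control library alone, so nothing is read from the comparison with those shares. The remaining measured marker, vas, was at 0.27 (-0.04 to 0.58), and osk and Vm32E were at 0 in the brat RNAi library. The part of the germline, yolk and eggshell markers in the ratio of Drs was not tested. The 7 fat body markers, none of them at 0, had 116 counts in all in the brat RNAi library and 181 in the control library, with 1 gene called higher and 2 called lower among 4 measured. These were larval serum protein genes, Fbp1, Fbp2 and Rfabg, so they do not cover all fat body transcripts. The yolk protein genes Yp1 (-6.31), Yp2 (-7.19) and Yp3 (-4.18) were kept in the germline, yolk and eggshell list. The 6 tracheal markers, none at 0, had 2270 counts in the brat RNAi library and 2990 in the control library, with 0 genes 2-fold apart. The 6 salivary gland markers had 17 counts in the brat RNAi library, where Sgs5 was at 0, and 39 in the control library, and the 2 spermathecal markers had 5 counts in the brat RNAi library and 1 in the control library, where Send1 was at 0. The 7 hemocyte markers, none at 0, had 7849 counts in the brat RNAi library and 7154 in the control library, with He at least 2-fold lower. The 5 glial markers had 9907 counts in the brat RNAi library and 11517 in the control library. The 4 neuronal markers had 3605 in the brat RNAi library and 4372 in the control library, with 0 genes 2-fold apart in either list. Over all measured genes, 4.48% were called lower and 1.15% higher. With the size factors applied, the log2 ratio of sums was 0.04 (0.01 to 0.08) for glia and -0.02 (-0.08 to 0.05) for neurons. It was -0.38 (-0.73 to -0.04) for fat body, -0.14 (-0.22 to -0.06) for trachea and 0.40 (0.35 to 0.44) for hemocytes. For salivary gland it was -0.94 (-1.85 to -0.08), and for spermatheca 2.58 (-0.58 to 8.15). The part of these lists in the ratio of Drs was not tested either.

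The authors' deposited table gave Drs an adjusted p-value of 2.89e-26, and 1 for each of the 9 pathway genes and for brat. For Def the adjusted p-value in the authors' deposited table was 0.0312, and for CecB it was 1. Those p-values rest on 1 library against 1, and the fold changes in that table are the same as those computed here, so it is no independent check.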

How the data were processed

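For each of the 2 polyA libraries the authors deposited read pair counts by gene. In the authors' deposited table, base means are normalised counts (a signal), and a log2 fold change with control on top stands beside an adjusted p-value, as the columns are named per the file headers. The submitters' processing notes name HTSeq, DESeq 1.8.3, TopHat 1.4.1 and BWA 0.6.1 with no roles; gene identifiers are those of FlyBase release 5.44, per the file headers. Read pairs assigned to no single gene were left out; they were 27.2% of the brat RNAi table and 22.7% of the control table.

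Counts were divided by median-of-ratios size factors, 0.913 for brat RNAi and 1.09 for control. The resulting log2 ratios equalled all 10987 finite ones of the authors' deposited table, with the sign turned round, within 1e-06. Intervals of ratios are 95% exact (Clopper-Pearson), 2-sided; those of levels are exact Poisson; both cover counting error only. The computation was tested on simulated data. No test was run, since 1 library per group leaves no residual degrees of freedom. Median transcript lengths came from Ensembl release 115 (BDGP6), by gene identifier or symbol, for 97.3% of measured genes; as the builds differ, it served only for names, lengths, gene order and overlaps, and no coordinates are given. No sequences were used here.

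The members and lists were chosen with earlier results of these data known. All 10 members were named, and from each list up to 4 measured genes at least 2-fold apart and the 3 most abundant; every antimicrobial peptide gene with a count was named. From the cell type markers, He and the yolk protein genes were singled out with their values known. So were IM23, y, w, kst, YT521-B and the genes that overlap members. One list entry, BaraA2, was not matched. Alternatives were edgeR 4.0.16 TMM scaling, total-count scaling, correction by deciles of length and then of level, 1 added to each count, and other count minimums. Python 3.11.15, SciPy 1.17.1 and R 4.3.3 were used.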

Additional observations from a re-analysis of the deposited data

How the results depend on the processing

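Drs kept its direction and its 2-fold call under each of the 4 alternatives run on it, with log2 ratios from -8.07 (total-count scaling) to -7.35 (1 added to each count). The counts of members at least 2-fold lower, 1, and higher, 0, were the same under all 5 alternatives run on them. The antimicrobial peptide genes at least 2-fold lower numbered 3, and 2 with a minimum of 50 counts. Total-count scaling shifted the median of all measured genes to -0.14 and that of the 9 pathway genes to -0.18, about the same shift; under it Rel stood at -0.09, against 0.05. Correction for length and level put Rel at -0.16, Tl at -0.49 and Dif at 0.06, so the signs of Rel and Dif depend on the scaling. Over all measured genes, 105 were higher and 410 lower (20.4% higher). Total-count scaling gave 62 higher and 535 lower (10.4% higher), and correction for length and level gave 191 higher and 236 lower (44.7% higher). A minimum of 50 counts left 214 lower genes; the alternative itself tests fewer genes. For the other shifts the cause was not tested. No paired analysis was possible because each group has 1 library. Among the 9 pathway genes, depth limits Dif, dl and spz the most, which have the fewest counts and the widest intervals.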
